A study of Mus musculus with 20 samples.

Results

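The 10 genes described here encode selenoproteins, that is proteins holding selenocysteine, the amino acid that carries selenium. They are Gpx1, Gpx4, Selenop, Selenow, Selenof, Selenok, Selenos, Msrb1, Dio1 and Sephs2, and they were matched by gene symbol among the 55487 gene identifiers of the count table, of which 21936 were protein coding. All 10 were found and all 10 passed the filter on low counts in every comparison. In the reference annotation used here (GENCODE M21, GRCm38), 24 genes carry an annotated selenocysteine, so the list holds 10 of these 24. The other 14 are given further down.

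Liver RNA was sequenced from 20 female C57BL/6J mice aged 28 weeks, with 1 library per mouse. 5 mice were kept on chow throughout. The other 15 were given a high-fat diet (HFD) from the age of 8 weeks and, for the last 10 weeks, an HFD in which 50% of the protein came from salmon fishmeal, salmon filet or beef and the rest from casein. Libraries were grouped by the ending of their column name, which gives 5 per group. Mouse 31 is named beef in the column name and salmon in the sample label, so results with salmon filet or beef were also computed with the label (6 salmon filet, 4 beef) and without this mouse. Chow differed from the HFDs in more than fat, and the study's values for the micronutrients of the protein sources are not used here. The libraries held 42526234 to 70266136 counts. The share of counts in protein coding genes was 84.3% in mouse 35 (beef) and 93.2% to 95.6% in the other libraries. The summed level of 6 hepatocyte markers was 94299 to 116740 CPM (counts scaled to library size with TMM factors) in chow and 84895 to 112240 CPM in HFD libraries, with none of the 6 called and none at 0.

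Selenocysteine is inserted at a UGA codon, which in other mRNAs ends translation. The insertion needs a hairpin in the 3′ UTR (SECIS), a protein that binds it and a dedicated tRNA, and it is slowed when selenium is scarce. The mRNAs are then not equal: Gpx1, Selenow and Selenoh are known to fall early at low selenium, whereas Gpx4 and the thioredoxin reductases are held longer, and a UGA that lies well before the last exon junction can expose an mRNA to nonsense-mediated decay. The liver takes up dietary selenium and sends it out as selenoprotein P, encoded by Selenop. Fish is a rich dietary source of selenium. The HFD groups compare whole protein sources, which the study found to differ in cholesterol, fatty acids and amino acids as well. The effect of selenium alone was not tested.

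The selenocysteine codons of the genes on which the comparisons turn were read from the annotation as the coding strand of the transcript, with the selenocysteine codon in capitals and 12 bases on either side in lower case. The codon stands at chr4:107297700-107297702 (minus strand) in exon 2 of Dio1, chr17:24740158-24740160 (plus) in exon 3 of Msrb1, chr7:127273731-127273733 (minus) in the only exon of Sephs2, chr9:108339451-108339453 (plus) in exon 1 of Gpx1, chr10:80054737-80054739 (plus) in exon 3 of Gpx4 and chr7:15920464-15920466 (minus) in exon 2 of Selenow.
Dio1: ggcagttgcaccTGAccttcatttctt
Msrb1: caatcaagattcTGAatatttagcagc
Sephs2: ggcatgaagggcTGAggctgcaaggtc
Gpx1: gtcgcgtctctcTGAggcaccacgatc
Gpx4: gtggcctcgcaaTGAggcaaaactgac
Selenow: tattgtggagctTGAggctataagccc
The codon was number 126 of 257 in Dio1, 95 of 116 in Msrb1, 63 of 452 in Sephs2, 47 of 201 in Gpx1, 73 of 197 in Gpx4 and 13 of 88 in Selenow. In Selenop 10 codons were annotated, the first at 59 of 380, and the other 9 genes held 1 each. In 6 genes (Gpx1, Gpx4, Selenop, Selenow, Selenof and Dio1) a selenocysteine codon lay 50 or more bases before the last exon junction, by 105 bases in Gpx1 and 303 in Dio1. For Selenop this held for 1 of its 10 codons. Msrb1 (34 bases), Selenok (5 bases), Selenos (codon in the last exon) and Sephs2 (1 exon) did not meet that distance.

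Per length, the 10 mRNAs spanned a wide range of levels. Selenop was the highest in all 20 libraries at 5239 ± 515 TPM (the authors' values scaled to gene length and library size; SD, n = 20), and it took 58.4% to 72.5% of the summed TPM of the 10 genes. Its lowest value, 3555 TPM, was that of mouse 35. Gpx1, the abundant cytosolic glutathione peroxidase, followed at 1018 ± 259 TPM. Msrb1, which reduces oxidised methionine, had 528 ± 82.98 TPM, and Sephs2, which makes the selenium donor for selenocysteine and is itself a selenoprotein, had 522 ± 73.6 TPM. Msrb1 was above Sephs2 in 10 of 20 libraries, so these neighbours did not differ beyond their spread. Selenow, a small redox protein, had 217 ± 43.5 TPM. Dio1, the deiodinase that turns thyroxine into active thyroid hormone, had 127 ± 49.4 TPM, and Gpx4, which removes lipid hydroperoxides, 113 ± 21.8 TPM, with Dio1 above Gpx4 in 11 of 20 libraries. The 3 proteins of the endoplasmic reticulum were lowest, with 88.8 ± 10.4 TPM for Selenok, 60.6 ± 10.6 for Selenos and 29.9 ± 2.68 for Selenof. The order of all other neighbours held in 18 to 20 libraries.

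**Figure D1:**
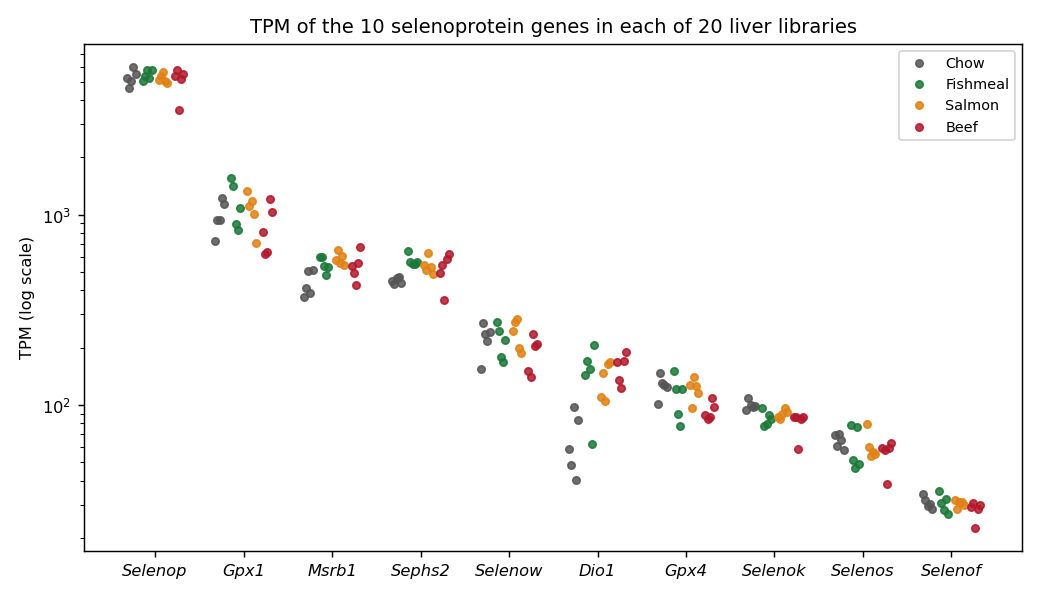
TPM (log axis) of the 10 genes in each of the 20 libraries, 1 point per library, coloured by diet group and ordered by mean level. Selenop lies between 3555 and 5966 TPM, above every other gene, whereas Dio1 has the widest relative range, from 40.2 to 206 TPM.

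HFD feeding was compared with chow first, over 5 chow and 15 HFD libraries. Dio1 and Msrb1 were higher in HFD-fed mice, and the other 8 genes did not pass the test. So 2 of the 10 were called, both higher, where 9.75% of the 17120 genes tested were called in either direction, 4.54% higher and 5.21% lower. The median log2 fold change of the 10 was 0.02, beside 0.00 over all genes tested. A gene was called at a Benjamini-Hochberg adjusted p under 0.05 in edgeR's quasi-likelihood test. In bulk tissue, fewer cells of a type and less RNA per cell cannot be told apart.

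Dio1 had 45.9, 34.1, 78.3, 29.6 and 64.5 CPM in chow (mice 1, 2, 5, 7 and 10). It had 136, 125, 117, 49.7 and 152 CPM with fishmeal (mice 12, 13, 14, 16 and 20). With salmon filet it had 80.7, 122, 83.7, 123 and 125 CPM (mice 22, 23, 25, 26 and 27), and with beef 128, 102, 112, 131 and 157 CPM (mice 31, 32, 35, 39 and 40). Of the 15 HFD libraries, 14 lay above the highest chow library, and fishmeal mouse 16 lay within the chow range. The mean was 50.5 ± 20.6 CPM in chow (SD, n = 5) and 116 ± 27.9 CPM in HFD (n = 15), a log2 fold change of 1.21 (SE 0.22, edgeR adjusted p = 0.00134) or 2.31-fold, with a 95% interval of 1.67 to 3.18-fold. Against the same 5 chow libraries, Dio1 rose with salmon filet by a log2 fold change of 1.08 (SE 0.25, edgeR adjusted p = 0.0347) or 2.12-fold, and with beef 2.498-fold (95% interval 1.75 to 3.57-fold, edgeR adjusted p = 0.0147). With fishmeal the value was 2.296-fold (1.44 to 3.65-fold, edgeR adjusted p = 0.0546), and Dio1 was called without mouse 16 (edgeR adjusted p = 0.0132) or without chow mouse 5 (0.0328). The rest of the 10 fits that left out 1 mouse did not call it, with an edgeR adjusted p of up to 0.137 (without chow mouse 2). Dio1 in salmon filet and beef did not overlap with chow, while fishmeal did. The salmon filet call was lost when any of 8 of the 10 mice was left out, with an adjusted p of 0.0512 to 0.0736.

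Msrb1 had 185, 187, 258, 182 and 251 CPM in chow, in the same order of mice. It had 365, 283, 259, 246 and 251 CPM with fishmeal, 272, 342, 284, 289.9 and 260.2 CPM with salmon filet, and 260.4, 237, 250.4, 274 and 359 CPM with beef. Chow mice 5 and 10 lay at the level of the lower HFD libraries and the other 3 chow mice lay below all HFD libraries. 11 of the 15 HFD libraries were above the highest chow library. The mean rose from 212 ± 38.4 CPM (n = 5) to 282 ± 40.8 CPM (n = 15), a log2 fold change of 0.41 (SE 0.11, edgeR adjusted p = 0.0207) or 1.33-fold (95% interval of the log2 value 0.18 to 0.63). The call was lost without chow mouse 1, 2 or 7, with log2 fold changes of 0.37, 0.37 and 0.35 and adjusted p-values of 0.0783, 0.0732 and 0.0832. Against chow, the log2 fold change of Msrb1 was 0.40 (fishmeal), 0.44 (salmon filet) and 0.37 (beef), none of which was called alone (edgeR adjusted p = 0.165, 0.062 and 0.179). Msrb1 in salmon filet did not overlap with chow.

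Sephs2 came next. Its lowest, median and highest values were 359.7, 457 and 678 CPM in HFD against 339.7 to 413 CPM in chow, and 13 of the 15 HFD libraries lay above the highest chow library. The log2 fold change was 0.33 (SE 0.11, 95% interval 0.10 to 0.55), with an edgeR adjusted p of 0.0599, so Sephs2 was not called. It was called without mouse 12, 27, 31 or 35 (adjusted p = 0.0429, 0.0498, 0.0498 and 0.0317). The rest of the 20 fits that left out 1 mouse did not call it, with an edgeR adjusted p of up to 0.153 (without chow mouse 2). The unverified gene model Gm44729 lies on the other strand over 792 bases of Sephs2, and whether reads were counted by strand is not given in the sources used here.

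By diet group, the counts of called genes against chow were 0 of 10 for fishmeal, where edgeR called 3.38% of all genes tested, 1 of 10 (Dio1) for salmon filet, where it called 4.42%, and 1 of 10 (Dio1) for beef, where it called 3.05%. At an unadjusted edgeR p under 0.05 there were 3 of the 10 for fishmeal, 3 for salmon filet and 5 for beef, beside 16.9%, 23.8% and 18.4% of all genes. For fishmeal, DESeq2 called 2 (Dio1 and Sephs2). DESeq2 called 12.6% of all genes in HFD versus chow, 7.13% for fishmeal, 10.6% for salmon filet and 7.25% for beef. For fishmeal, 2.12% were called with no filter on low counts, 5.07% in a fit on all 4 groups and 2.43% with limma on TPM. Libraries did not overlap with chow for 1 of the 10 genes with fishmeal (Sephs2, 5.91% of all genes), 2 with salmon filet (Dio1 and Msrb1, 8.28%) and 1 with beef (Dio1, 6.16%). The 3 comparisons share the 5 chow libraries.

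**Figure D2:**
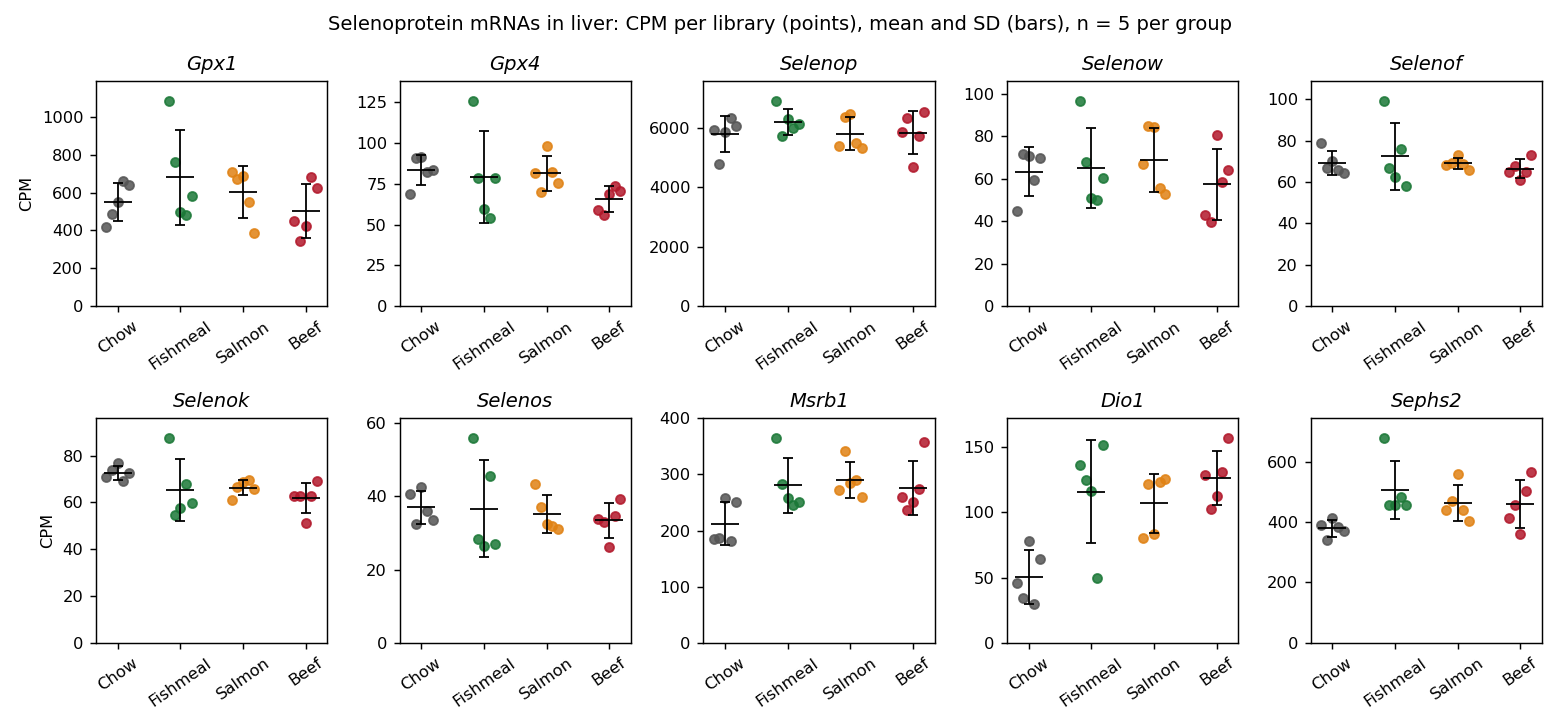
CPM of each gene in each library (points; linear axis from 0) with the mean and SD of the 4 diet groups, 5 libraries each, mouse 31 drawn with beef. Dio1 separates chow from 14 of the 15 HFD libraries, and fishmeal mouse 12 is the highest library of its group in 9 of the 10 panels.

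Genes of the circadian clock differed in level between the libraries. The score used here is the mean log2 CPM of Arntl, Npas2, Clock and Cry1 less that of Dbp, Nr1d1, Nr1d2, Per3, Ciart and Tef. It was 0.96 to 3.31 in chow and -4.01 to 2.23 in HFD libraries, of which 13 of 15 lay below the lowest chow library. Chow mice 5 and 10, with the lowest scores in their group (0.96 and 2.19), had the highest Dio1 and Msrb1 of that group, and chow mice 1, 2 and 7 had scores of 3.22, 3.31 and 3.24. Fishmeal mouse 16, with the low Dio1, had a score of 0.90, and beef mouse 31, with a score of 2.23, had 128 CPM of Dio1. With the score as a covariate, the log2 fold change of Dio1 in HFD versus chow was 0.91 (SE 0.25, edgeR adjusted p = 0.0743) and that of Msrb1 0.29 (SE 0.14, edgeR adjusted p = 0.371). Sephs2 was then 0.23 (SE 0.14, edgeR adjusted p = 0.551). In that fit none of the 10 was called, and 1.67% of all genes were called. With the score in the fit, 0.304% of all genes were called for fishmeal, 0.115% for salmon filet and 0.104% for beef against chow, with 0 of the 10 genes in each. Dio1 was then 0.47 for fishmeal, 0.79 for salmon filet and 0.94 for beef (edgeR adjusted p = 0.832, 0.673 and 0.278). Msrb1 was 0.35 for fishmeal, 0.22 for salmon filet and 0.06 for beef. The part of the clock in the difference from chow was not tested beyond these fits.

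**Figure D3:**
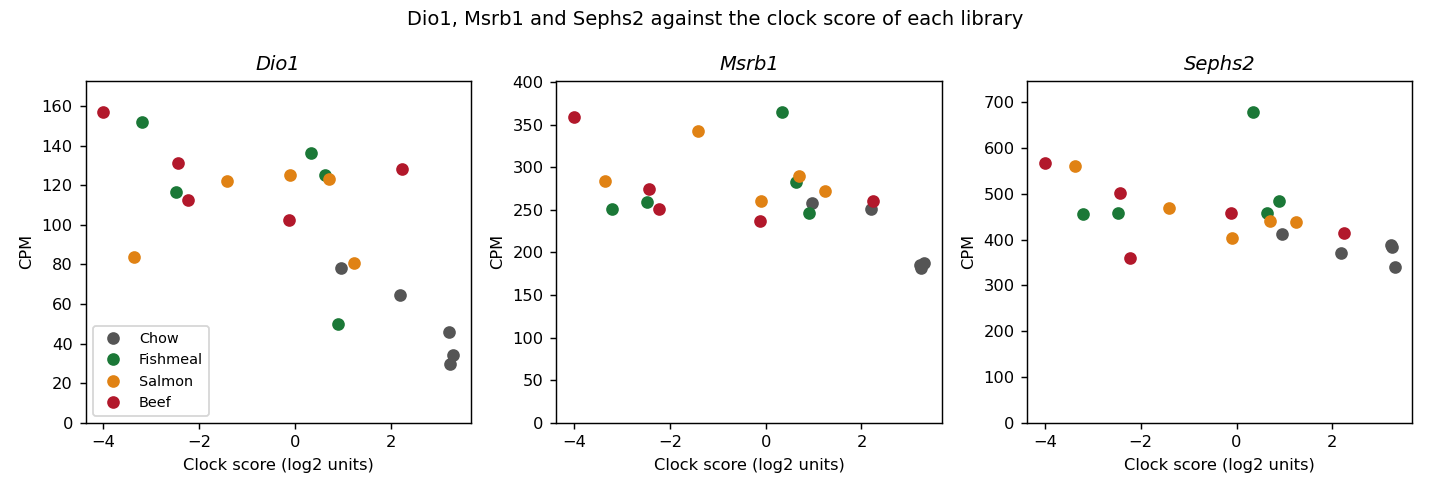
CPM of Dio1, Msrb1 and Sephs2 (linear axes from 0) against the clock score of each library (log2 units), 1 point per library coloured by group. The 3 chow libraries with scores above 3.2 hold the lowest Msrb1 values, and Dio1 is below 80 CPM in all 5 chow libraries and in fishmeal mouse 16.

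The 2 glutathione peroxidases did not pass the test in HFD versus chow. Gpx1 had 418, 485, 548, 659 and 639 CPM in chow, 1081, 762, 495, 482 and 581 CPM with fishmeal, 709.6, 674, 689.6, 552 and 387 CPM with salmon filet and 449.9, 343, 423, 684 and 622 CPM with beef. All groups overlapped. The log2 fold change in HFD versus chow was 0.11 (95% interval -0.28 to 0.51, edgeR adjusted p = 0.772). Gpx4 had 68.8 to 91.4 CPM in chow and 54.2, 73.8 and 125 CPM (lowest, median, highest) in HFD, a log2 fold change of -0.15 (-0.44 to 0.14, edgeR adjusted p = 0.566). By group, Gpx4 against chow was -0.08 for fishmeal, -0.04 for salmon filet and -0.35 for beef (-0.59 to -0.12, edgeR adjusted p = 0.103), with all 5 beef libraries below the chow mean. Reads of Gpx4 could be shared with Gpx4-ps2, a copy that is 99.7% identical over 762 bases.

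Selenow had 44.9, 71.8, 70.7, 59.6 and 69.9 CPM in chow, 96.3, 67.8, 50.7, 49.8 and 60.4 CPM with fishmeal, 66.9, 84.6, 84.3, 55.7 and 52.7 CPM with salmon filet and 42.96, 39.7, 80.7, 58.6 and 64.3 CPM with beef. The groups overlapped, and the log2 fold change in HFD versus chow was 0.01 (-0.34 to 0.35, edgeR adjusted p = 0.99). Selenop had 4761 to 6326 CPM in chow and 4682 to 6878 CPM in HFD, with a log2 fold change of 0.03 (-0.16 to 0.23, edgeR adjusted p = 0.862). It shares 439 bases with Ccdc152 on the other strand. For Selenop, the interval allows a change of at most 1.17-fold upwards and 0.897-fold downwards.

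The 3 genes of the endoplasmic reticulum gave log2 fold changes of 0.00 for Selenof (-0.19 to 0.19), which takes part in glycoprotein folding, -0.17 for Selenok (-0.35 to 0.00) and -0.08 for Selenos (-0.37 to 0.21), the last pair linked to removal of misfolded proteins. None was called (edgeR adjusted p = 0.999, 0.219 and 0.78). Selenok had 68.95 to 76.7 CPM in chow, and 12 of the 15 HFD libraries lay below that range, while fishmeal mouse 12 lay above it with 87.5 CPM. Without mouse 12 Selenok was called, with a log2 fold change of -0.21 (edgeR adjusted p = 0.0428). Reads of Selenok could be shared with several processed copies, such as Selenok-ps8, 97.9% identical over 280 bases.

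The HFD groups were then compared with each other, which asks whether the protein source was seen in these mRNAs. None of the 10 genes passed the test between fishmeal, salmon filet and beef. The count of called genes was 0 of 10 in fishmeal versus beef, where 0.0245% of 16304 genes were called, 0 of 10 in salmon filet versus beef (0% of 16212 genes), 0 of 10 in fishmeal versus salmon filet (0.17% of 16494 genes) and 0 of 10 in fishmeal and salmon filet together versus beef (0% of 16795 genes). At an unadjusted p under 0.05 the counts over all genes were 422, 796, 851 and 508, and DESeq2 called 35, 6, 98 and 0. Among the 10 genes, DESeq2 called 0 in each, and 1 gene, Gpx4 in salmon filet versus beef, had an unadjusted edgeR p under 0.05, as had 4.91% of all genes. None of the 10 was called under the alternative settings or with any mouse left out.

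Gpx1 in fishmeal versus beef had the largest log2 fold change of the 10 genes in these comparisons. Its mean was 680.3 ± 250.4 CPM with fishmeal, 602 ± 135 CPM with salmon filet and 505 ± 143 CPM with beef (SD, n = 5 each), and 549.7 ± 102 CPM in chow. The log2 fold change in fishmeal versus beef was 0.43 (SE 0.24, 95% interval -0.10 to 0.96, edgeR adjusted p = 0.999). Fishmeal mouse 12 held the highest value of all libraries, and without it the log2 fold change of Gpx1 was 0.21 (SE 0.21). Over the fits that left out 1 mouse, this log2 fold change ran from 0.21 to 0.57. In salmon filet versus beef the log2 fold change of Gpx1 was 0.25 (-0.20 to 0.70), and 0.15 (SE 0.22) with mouse 31 grouped by its label. Over the alternative settings it ran from 0.15 to 0.33.

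Gpx4 had 81.7, 69.7, 98.2, 82.3 and 75.4 CPM with salmon filet and 58.9, 55.8, 69.03, 73.8 and 70.8 CPM with beef. All 5 salmon filet libraries were above the beef mean, but the groups overlapped. The log2 fold change was 0.31 (SE 0.11, 95% interval 0.06 to 0.55), with an unadjusted edgeR p of 0.0173 and an adjusted p of 0.922. With mouse 31 grouped by its label the value was 0.20 (SE 0.13). It was 0.35 (SE 0.10) with the clock score as a covariate and 0.37 (SE 0.12) with limma on log2(TPM + 1). In fishmeal, Gpx4 ran from 54.2 to 125 CPM, so that fishmeal versus beef gave 0.27 (-0.16 to 0.70), and 0.05 without mouse 12. Over the fits that left out 1 mouse, this value ran from 0.05 to 0.38.

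Selenow gave 0.18 (-0.29 to 0.66) in fishmeal versus beef and 0.26 (-0.17 to 0.70) in salmon filet versus beef. The first was 0.00 without mouse 12, and the second 0.08 with mouse 31 grouped by its label. Over the fits that left out 1 mouse, they ran from 0.00 to 0.35 and from 0.16 to 0.41. With the clock score as a covariate they were 0.24 and 0.36, the second at an unadjusted edgeR p of 0.0337 and an adjusted p of 0.548. Dio1 gave -0.12 (-0.64 to 0.39) and -0.24 (-0.58 to 0.10), and Msrb1 0.02 (-0.29 to 0.34) and 0.06 (-0.20 to 0.33). For Selenop the values were 0.09 (-0.18 to 0.36) and -0.01 (-0.28 to 0.26). For each of the 10 genes and each of the 4 comparisons between HFD groups, the 95% interval lay within a log2 fold change of 1 in either direction. With the clock score as a covariate, the upper bound of Gpx1 in fishmeal versus beef was 1.03.

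**Figure D4:**
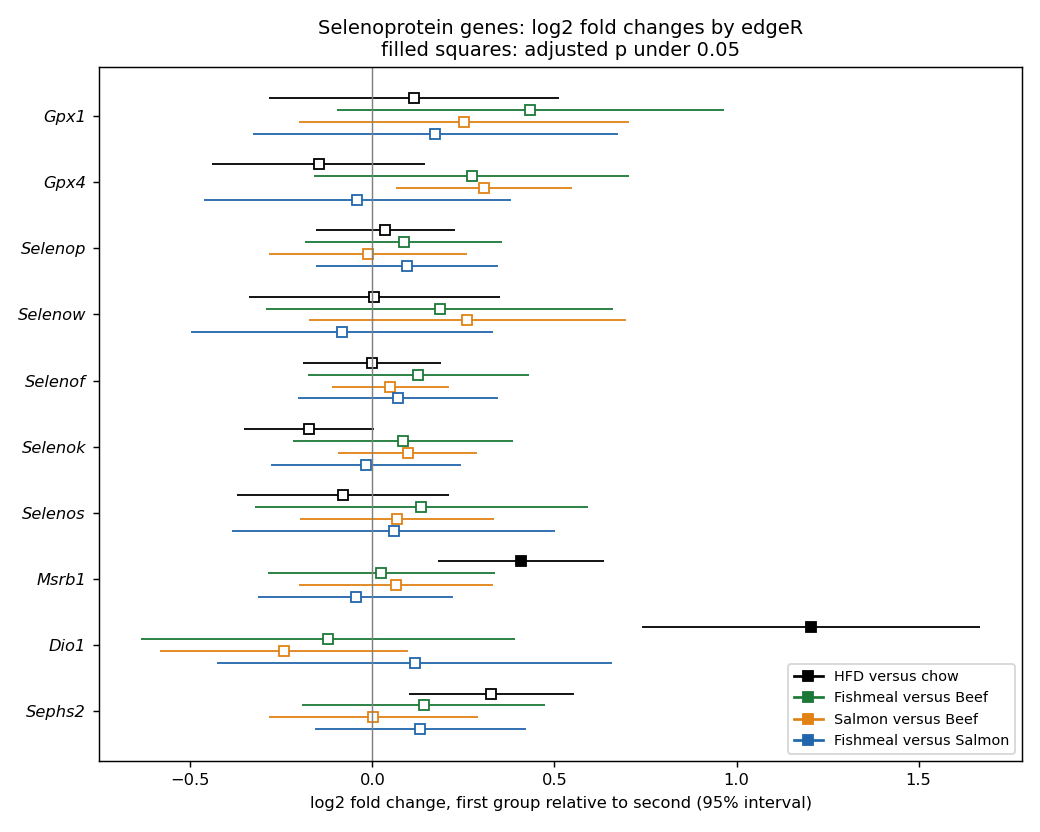
Log2 fold changes with 95% intervals of the 10 genes in 4 comparisons, where filled squares mark an adjusted p under 0.05 and open squares the rest. The squares for Dio1 (1.21) and Msrb1 (0.41) in HFD versus chow are the filled ones, and all squares between HFD groups are open.

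In fishmeal versus beef, 9 of the 10 log2 fold changes were above 0, with a median of 0.13 beside 0.00 over all genes. Of all genes, 8112 of 16304 were above 0. In the related lists given further down, 9 of 11 other selenoproteins were above 0 (median 0.06). So were 10 of 13 genes of selenocysteine synthesis, insertion and uptake (0.09) and 8 of 8 cysteine relatives and thioredoxins (0.14). Without mouse 12, 5 of the 10 genes were above 0 and the median was 0.00. Without beef mouse 35, 8 of the 10 were above 0 with a median of 0.07. In salmon filet versus beef, which does not hold mouse 12, 8 of 10 were above 0 with a median of 0.07, beside 0.01 over all genes. Of all genes, 8335 of 16212 were above 0. The related lists, in the same order, had 8 of 10, 9 of 13 and 7 of 8 above 0, with medians of 0.11, 0.06 and 0.13. For the 10 genes, 6 were above 0 without mouse 35 (median 0.02). With mouse 31 grouped by its label, 7 of the 10 were above 0 (0.05). Mouse 12 had a TMM factor of 0.88, the lowest of the 20, and was the highest fishmeal library in 9 of 10 genes by CPM and in 8 of 10 by TPM. By the position of the selenocysteine codon, the 6 genes with a junction 50 or more bases after it had a median of 0.16 in fishmeal versus beef. The other 4 had 0.11, with none called in either. Both medians include mouse 12. Without it, Gpx1, Gpx4 and Selenow of the first class gave 0.21, 0.05 and 0.00, and Sephs2 of the other class 0.02. In salmon filet versus beef the medians were 0.15 and 0.07. The order was the other way in HFD versus chow, with 0.02 and 0.12 and 1 gene called in each class. The difference between the classes was not tested.

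The 10 mRNAs also varied together within groups. After centring each gene on its group means in log2 CPM, Pearson's r over the 20 libraries was above 0 for 42 of the 45 pairs, with a median of 0.45, and the median was 0.29 without mouse 12. Selenof and Selenos were the closest pair (r = 0.847, and 0.76 without mouse 12), and Dio1 and Selenos the least alike (r = -0.128). The libraries share their depth and scaling across genes, so these are given as a description. Among 7405 protein coding genes with a mean of at least 10 CPM, the genes most like Dio1 over the 20 libraries were Inhbc (r = 0.892), Scp2 (r = 0.879) and Cbr4 (r = 0.873). Those most like Msrb1 were Txndc12 (r = 0.906), Got2 (r = 0.902) and Snap47 (r = 0.899). All libraries, and so the step from chow to HFD, enter these values.

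The rest of the selenoprotein family was measured in the same libraries. Of the other 14 genes, 11 passed the filter on low counts and 2 were called in HFD versus chow, both higher, with a median log2 fold change of 0.09. Over all genes tested, 9.75% were called (4.54% higher and 5.21% lower) and the median was 0.00. Selenoo, a mitochondrial protein that attaches AMP to other proteins, rose from 49.4 ± 3.52 CPM in chow to 59.7 CPM in HFD, a log2 fold change of 0.27 (SE 0.06, edgeR adjusted p = 0.00994), with 14 of 15 HFD libraries above the highest chow library. It was also called in salmon filet versus chow (0.34, edgeR adjusted p = 0.024). Selenoh, a nuclear redox protein, had a mean of 0.603 ± 0.15 CPM in chow and 1.03 ± 0.244 CPM in HFD, a log2 fold change of 0.77 (SE 0.19, edgeR adjusted p = 0.0123) at only 27 to 88 counts per library. The annotation places Gm28635 on the same strand over the whole 1556 bases of Selenoh, so reads of Selenoh may be split or left uncounted. Tubgcp6 overlaps Selenoo on the other strand over 1984 bases. Txnrd1, the cytosolic thioredoxin reductase, was not called (-0.14, 95% interval -0.30 to 0.02, edgeR adjusted p = 0.276). Gpx2, Dio2 and Selenov did not pass the filter, with 0 to 7, 0 to 2 and 0 counts per library, where 0 counts allow up to 0.0427 to 0.0705 CPM (3 counts, counting error only).

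Of 14 genes for selenocysteine synthesis and insertion and for selenium uptake, 13 were tested and 1 was called, with a median log2 fold change of -0.03. The share called over all genes tested was 9.75%. Secisbp2l, a relative of the SECIS-binding protein, fell by 0.24 on the log2 scale (SE 0.07, edgeR adjusted p = 0.0288), from 96.7 ± 5.34 CPM in chow to 82.2 CPM in HFD, and 13 of 15 HFD libraries lay below the lowest chow library. It was also called in fishmeal versus chow (-0.32, edgeR adjusted p = 0.0486). Secisbp2, the SECIS-binding protein itself, had a log2 fold change of -0.13 (-0.27 to 0.01, edgeR adjusted p = 0.232). The selenium uptake receptor gene Lrp8 was near 0, with 0 to 14 counts per library.

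The last list held 9 genes, namely relatives that use cysteine in place of selenocysteine and the thioredoxins Txn1 and Txn2. Of these 9, 8 were tested and 2 were called, both lower, with a median log2 fold change of 0.08. Over all genes tested, 9.75% were called and 5.21% were called lower. Msrb3, a methionine sulfoxide reductase like Msrb1, fell by 0.31 on the log2 scale (SE 0.09, edgeR adjusted p = 0.0292), and Gpx7, a peroxidase of the endoplasmic reticulum, fell by 0.57 (SE 0.16, edgeR adjusted p = 0.0282) at 22 to 78 counts per library. With the clock score as a covariate, Selenoo, Selenoh, Secisbp2l, Msrb3 and Gpx7 were not called (edgeR adjusted p = 0.171, 0.333, 0.459, 0.627 and 0.132), with log2 fold changes of 0.25, 0.55, -0.17, -0.17 and -0.71. Leaving out 1 chow mouse ended the calls of Secisbp2l (mouse 1, 2 or 5, adjusted p up to 0.114), Msrb3 (mouse 1, 2 or 7, up to 0.174) and Gpx7 (mouse 2, 5 or 7, up to 0.101). Msrb3 had the opposite sign to Msrb1. The summed markers of stellate cells were 326 to 394 CPM in chow and 278 to 456 CPM in HFD, those of sinusoidal endothelium 193 to 225 and 158 to 227 CPM, and those of lymphocytes 5.69 to 11.5 and 2.16 to 5.78 CPM, with 0 of 6, 1 of 6 and 5 of 7 markers called lower and none at 0. Red blood cell markers summed to 73.6 to 212 CPM in chow and 84.5 to 482 CPM in HFD, with 1 of 5 called higher, and exocrine pancreas markers to 8.51 to 10.9 and 10.8 to 26.1 CPM, with 1 of 5 tested and called higher. These marker counts stand beside 5.21% of all genes tested called lower and 4.54% called higher. The part of these cell types in the selenoprotein values was not tested. Between HFD groups, 0 of the genes of the 3 lists were called by edgeR or by DESeq2. Gpx3, the plasma glutathione peroxidase, was the only one of them with an unadjusted edgeR p under 0.05, with a log2 fold change of -0.67 in fishmeal versus salmon filet (edgeR adjusted p = 0.74) and 0.51 in salmon filet versus beef (edgeR adjusted p = 0.922).

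**Figure D5:**
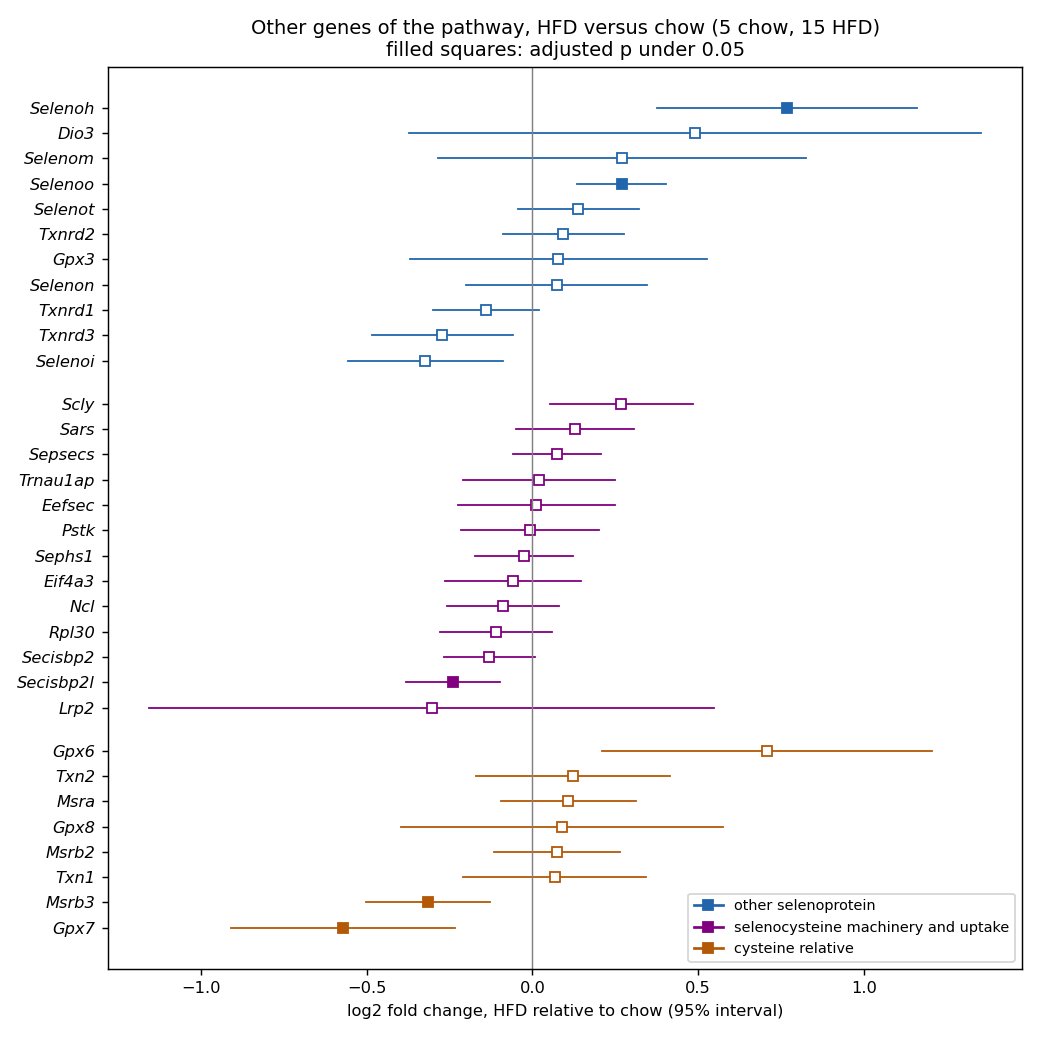
Log2 fold changes with 95% intervals in HFD versus chow for the tested genes of the 3 other lists. They are 11 selenoproteins, 13 genes of selenocysteine synthesis, insertion and uptake, and 8 genes of the list of cysteine relatives and thioredoxins. Filled squares mark an adjusted p under 0.05. Selenoh and Selenoo are filled to the right of 0, and Secisbp2l, Msrb3 and Gpx7 to the left.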

How the data were processed

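The libraries were stranded mRNA libraries read from both ends. Per the authors, BBDuk was used for trimming, HISAT2 (1.2.1) for mapping and featureCounts (1.4.6-p1) to assign reads to Ensembl genes. The deposited values are raw counts, and TPM that the authors scaled to gene length and library size. The settings for strand and for reads that match several genes are not given in the sources used here, and the build is named GRCh38 although the reads are from mouse. Positions and sequences therefore come from GENCODE M21 (GRCm38) by Ensembl identifier, of which 55141 of 55487 were found. 5 of the 10 genes carry an older symbol in the first symbol column and were matched by the current symbol of the same row. Depth was 42526234 to 70266136 counts per library.

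Counts were tested with edgeR 4.0.16 (R 4.3.3) by two-sided quasi-likelihood tests with TMM factors, filterByExpr at a minimum count of 10 and Benjamini-Hochberg adjustment over every gene that passed. CPM used TMM factors over all 20 libraries. HFD versus chow used all 20 libraries, and every other comparison only the groups it names. Each library is labelled with its own mouse number. Every one of the 40 library pairs within a group showed more than sampling noise (chi-square per gene 31.9 to 413.9), so none was merged.

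Alternatives were DESeq2 1.42.0, edgeR with DESeq2 size factors, no filter on low counts, a fit on all 4 groups, groups as labelled, without mouse 31, limma 3.58.1 on log2(TPM + 1) at a mean TPM of at least 0.5, the clock score as covariate, and each mouse left out. The fits were tested on counts simulated with edgeR's own dispersion estimates, for HFD versus chow and for fishmeal versus beef. In these, unchanged genes made up a larger share of the DESeq2 calls than of the edgeR calls. Because the simulation rests on edgeR's estimates, it cannot rank the methods on the real counts. All 10 genes are named, with values per library for those called in any comparison and for Gpx1 and Selenow. From 3 further lists, genes called in HFD versus chow or between HFD groups are named, and Selenoh, Txnrd1 and Secisbp2 regardless. Gpx3, Gpx2, Dio2, Selenov and Lrp8, and the library values of Gpx4, were added after their values were seen. The genes and lists were chosen with earlier results of these data known.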

Additional observations from a re-analysis of the deposited data

Results flagged for a closer look

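The 10 genes in the 4 diet groups gave 40 groups of 5 libraries, in which the gap between the highest or lowest library and its neighbour was compared with the range of the group. In 1 of the 40 the ratio passed the critical value of 0.71, where chance alone gives about 1 in 20. Sephs2 in fishmeal was 678 CPM in mouse 12 and 483 CPM in the next library, a ratio of 0.88. Mouse 12 had a clock score of 0.34 and a TMM factor of 0.88, and without it the log2 fold change of Sephs2 in HFD versus chow was 0.28 (edgeR adjusted p = 0.0429).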

How the results depend on the processing

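Over 1560 refitted log2 fold changes of the 10 genes, 111 had the opposite sign to the value reported, none of them called in either fit, 15 lost a call and 17 gained one. Not all of these fits are distinct. Leaving out mouse 31 entered both as a setting and among the mice left out, so its gained call of Sephs2 in HFD versus chow counts under both. In salmon filet versus chow and fishmeal versus salmon filet, that setting repeats the reported fit. In HFD versus chow, 2 genes were called, 0 with the clock score as a covariate and 1 to 4 with 1 mouse left out. In fishmeal versus chow 0 were called, but 2 with DESeq2 (Dio1 and Sephs2), 1 with no filter on low counts (Dio1), 1 in the fit on all 4 groups (Dio1), 1 with limma on log2(TPM + 1) (Sephs2), and 0 to 1 with 1 mouse left out. In salmon filet versus chow 1 was called, 2 with DESeq2 (Dio1 and Msrb1), 0 with the clock score, and 0 to 2 with 1 mouse left out. In beef versus chow 1 was called, 2 with DESeq2 (Dio1 and Gpx4, the latter at -0.34, adjusted p = 0.0459) and 0 with the clock score. The clock score differs between chow and HFD, and the cause of these changes was not tested. Sephs2 in HFD versus chow was called by DESeq2 (adjusted p = 0.0271) but not by limma on log2(TPM + 1) (adjusted p = 0.106). Selenoo was not called by limma (adjusted p = 0.101), and Secisbp2l (0.0607) and Gpx7 (0.0593) were not with no filter on low counts. The count of all genes called in HFD versus chow was 1669 and 286 with the clock score, in fishmeal versus chow 556 and 1175 with DESeq2, and in fishmeal versus beef 4 and 35 with DESeq2. No paired analysis was possible because each mouse has its own number and none is shared between groups. With 5 libraries per group, small changes can be missed.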
